A study of Mus musculus with 5 samples.

Results

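Enzymes that modify drugs, dietary chemicals, steroids and bile pigments were examined in mouse colon spheroids as 4 gene families. The members are all gene rows whose symbol belongs to the cytochromes P450 of families Cyp1 to Cyp4, the glutathione transferases (Gst classes alpha, kappa, mu, omega, pi, theta and zeta, and the microsomal Mgst genes), the UDP-glucuronosyltransferases of families Ugt1 and Ugt2, or the cytosolic sulfotransferases (Sult). The rule uses gene symbols and no measured value. This gave 147 of the 32793 gene rows, made up of 84 cytochrome P450, 25 glutathione transferase, 17 UDP-glucuronosyltransferase and 21 sulfotransferase genes. The cytochrome P450 rows include the pseudogenes Cyp2c53-ps, Cyp2d13, Cyp2d37-ps, Cyp4b1-ps2 and Cyp4f41-ps and the noncoding RNA Cyp4x1os. Of these, Cyp2d13 and Cyp2d37-ps had enough counts to be tested and are included in the counts below.

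As background, these enzymes are usually described as acting in sequence. Cytochromes P450, which take electrons from the P450 oxidoreductase Por, insert oxygen into a fat-soluble molecule. Glutathione transferases, UDP-glucuronosyltransferases and sulfotransferases then attach glutathione, glucuronic acid or sulfate, and ABC transporters carry the product out of the cell. The liver is the best known site, but the gut epithelium carries its own set. Several of the genes are induced by ligand-activated receptors (Ahr, the pregnane X receptor Nr1i2 and the constitutive androstane receptor Nr1i3) or by the stress-response factor Nfe2l2.

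RNA was sequenced in bulk from 2 mutant and 3 wild-type colon spheroid samples, spheroids being small balls of epithelial cells grown in culture. The mutant libraries (titled RA, called NDD here) carry the dimerization-deficient alleles Notch1DD and Notch2DD. The control libraries are wild type at these genes (WT). All 5 come from mice of mixed strain background, mostly C57Bl6 and partly FVB. Whether the libraries of a group came from separate animals or from separate cultures is not given in the labels, so the p-values here measure only the spread between these samples, which may be technical. Ages and culture conditions are not given in the sources used here.

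Total counts per library were between 19192389 and 23064000. At that depth a gene listed at 0 could still have up to 3 counts (95% confidence), which is 0.130 to 0.156 CPM (counts scaled to a common library total). This limit covers counting error only. The colon epithelium markers summed to between 11223 and 12655 TPM (an RNA level corrected for transcript length and scaled to the same total in every library) in each library, whereas the fibroblast, immune, endothelial and hepatocyte lists summed to at most 8.94, 8.12, 2.96 and 9.33 TPM. Gene counts cannot separate the mutant from the normal Notch alleles, so they do not check the genotype labels. Notch1 stood at 9.91 and 9.07 TPM in NDD and at 12, 10.5 and 9.94 TPM in WT, and Notch2 at 6.06 and 3.89 TPM against 5.9, 5.55 and 8.84 TPM. Neither passed the test (log2 fold changes of -0.17 and -0.43; edgeR, adjusted p = 0.584 and 0.505).

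Detection differed between the families. Among the glutathione transferases, 24 of 25 genes had enough counts to be tested (the filter for low counts is given with the methods), and the remaining gene, Gstt4, had 0 counts in all 5 libraries. Of the cytochromes P450, 32 of 84 could be tested, 24 had a few counts and 28 had none. The corresponding numbers were 7 tested, 4 counted and 6 at 0 for the UDP-glucuronosyltransferases, and 6 tested, 3 counted and 12 at 0 for the sulfotransferases. In all, 69 members were tested, 31 were counted but too low to test, and 47 had no count. A mean of at least 1 TPM in either group was reached by 60 members (27 cytochromes P450, 23 glutathione transferases, 5 UDP-glucuronosyltransferases and 5 sulfotransferases).

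Whole branches were silent at this depth. All 8 Sult2a genes, which sulfate steroids and bile acids, and all 3 Ugt2a genes had 0 counts in every library. None of the 4 Cyp2a or the 8 Cyp4a genes could be tested. In the Cyp3a group, which holds the principal drug-oxidizing enzymes of mouse liver, Cyp3a13 was tested and the other 7 genes, Cyp3a11 among them, were too low or at 0. Cyp1a2, Cyp2e1 and Cyp2c29, all prominent in liver, were likewise not testable. The largest count of any untested member in any library was 12, reached by Cyp3a41a in NDD replicate 1 (0 in the other 4 libraries), by Ugt2b5 and by the pseudogene Cyp4f41-ps.

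**Figure D1:**
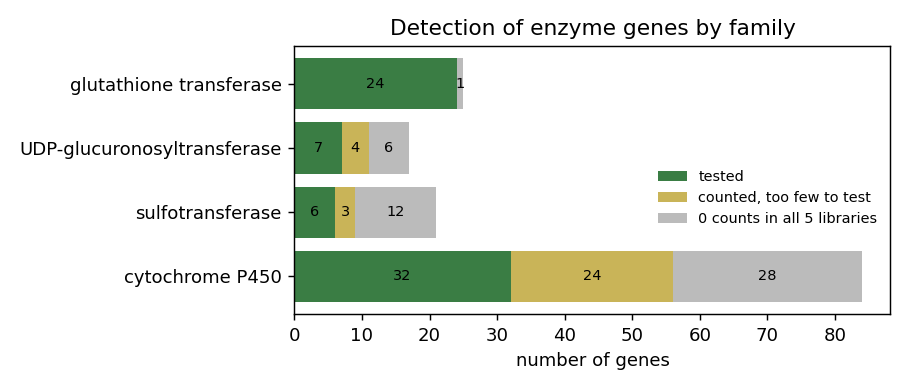
Number of genes in each family (horizontal axis) that were tested, had counts but too few to test, or had 0 counts in all 5 libraries. Nearly all glutathione transferases were tested (24 of 25), against 32 of 84 cytochromes P450.

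A few glutathione transferases made up most of the enzyme RNA. The pi-class Gstp1 was the most abundant member, with a mean of 2462 TPM over the 5 libraries. It was followed by the omega-class Gsto1 at 1329 TPM, the microsomal Mgst3 at 1023 TPM, the mu-class Gstm1 at 606 TPM and the alpha-class Gsta4 at 519 TPM. Gstp1, Gsto1 and Mgst3 together held between 49.5% and 57.2% of the members' summed TPM in each library. The most abundant cytochrome P450 was Cyp2c55, at 303 TPM.

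Summed over each family, RNA levels were higher in both NDD libraries than in all 3 WT libraries for each of the 4 families. These sums are descriptive and were not tested. Glutathione transferases summed to 8311 and 8545 TPM in NDD and to 6524, 7497 and 7021 TPM in WT, a ratio of group means of 1.20. Cytochromes P450 summed to 836 and 1290 TPM against 703, 599 and 267 TPM (ratio 2.03). The highest NDD library for both this family and the sulfotransferases was replicate 2, and the lowest WT library was replicate 3. UDP-glucuronosyltransferases summed to 444 and 504 TPM against 336, 294 and 233 TPM (ratio 1.65). Sulfotransferases summed to 168 and 349 TPM against 134, 139 and 94.9 TPM (ratio 2.11). In bulk RNA, a change in the share of cells that express these genes and a change in RNA per cell cannot be told apart.

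**Figure D2:**
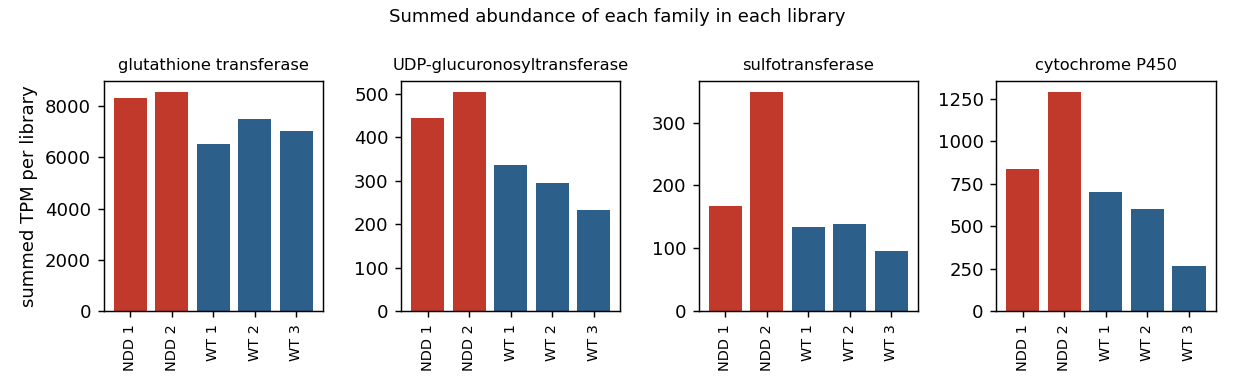
Summed TPM of each enzyme family (vertical axes, starting at 0 and scaled per family) in the 2 NDD and 3 WT libraries, 1 bar per library. Both NDD bars stand above the 3 WT bars in every panel, by the smallest relative margin for the glutathione transferases.

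No single member passed the test between genotypes. By edgeR's quasi-likelihood test on counts, 0 of 69 tested members had an adjusted p under 0.05, where 0.0889% of all 13501 tested genes did. At an unadjusted p under 0.05 there were 21 members, or 30.4%, against 11.2% of all tested genes. Of these, 20 were higher in NDD (29% of members, against 6.49% of all genes) and 1 was lower (1.45%, against 4.68%). DESeq2, another count test, gave an adjusted p under 0.05 for 6 members, or 8.7%, against 2.64% of all genes. All 6 were higher in NDD, namely Cyp2c68, Gstp1, Cyp2d10, Cyp2d12, Ugt1a7c and Gstm3.

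The direction was nonetheless uneven. The log2 fold change of NDD over WT was above 0 for 52 of 69 members, or 75.4%, against 49.5% of all tested genes. The CPM of both NDD libraries exceeded that of all 3 WT libraries for 28 members (40.6%, against 15.8% of all genes) and fell short of all 3 for 2 members (2.9%, against 16.2%), Sult4a1 and Cyp2b10. The median log2 fold change was 0.48 over the tested members and -0.0047 over all tested genes. By family it was 0.42 for glutathione transferases, 0.70 for UDP-glucuronosyltransferases, 0.80 for sulfotransferases and 0.68 for cytochromes P450. Without NDD replicate 2 these medians were 0.13, 0.29, 0.11 and 0.44, and the number of members higher at an unadjusted p under 0.05 was 8 in place of 20 (11.3% of members, against 3.72% of all genes in that fit). In that fit the spread comes from the WT libraries alone, and the lone NDD library is assumed to vary like them. The cytochrome P450 median was 1.06 without WT replicate 1 and 0.42 without WT replicate 3.

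**Figure D3:**
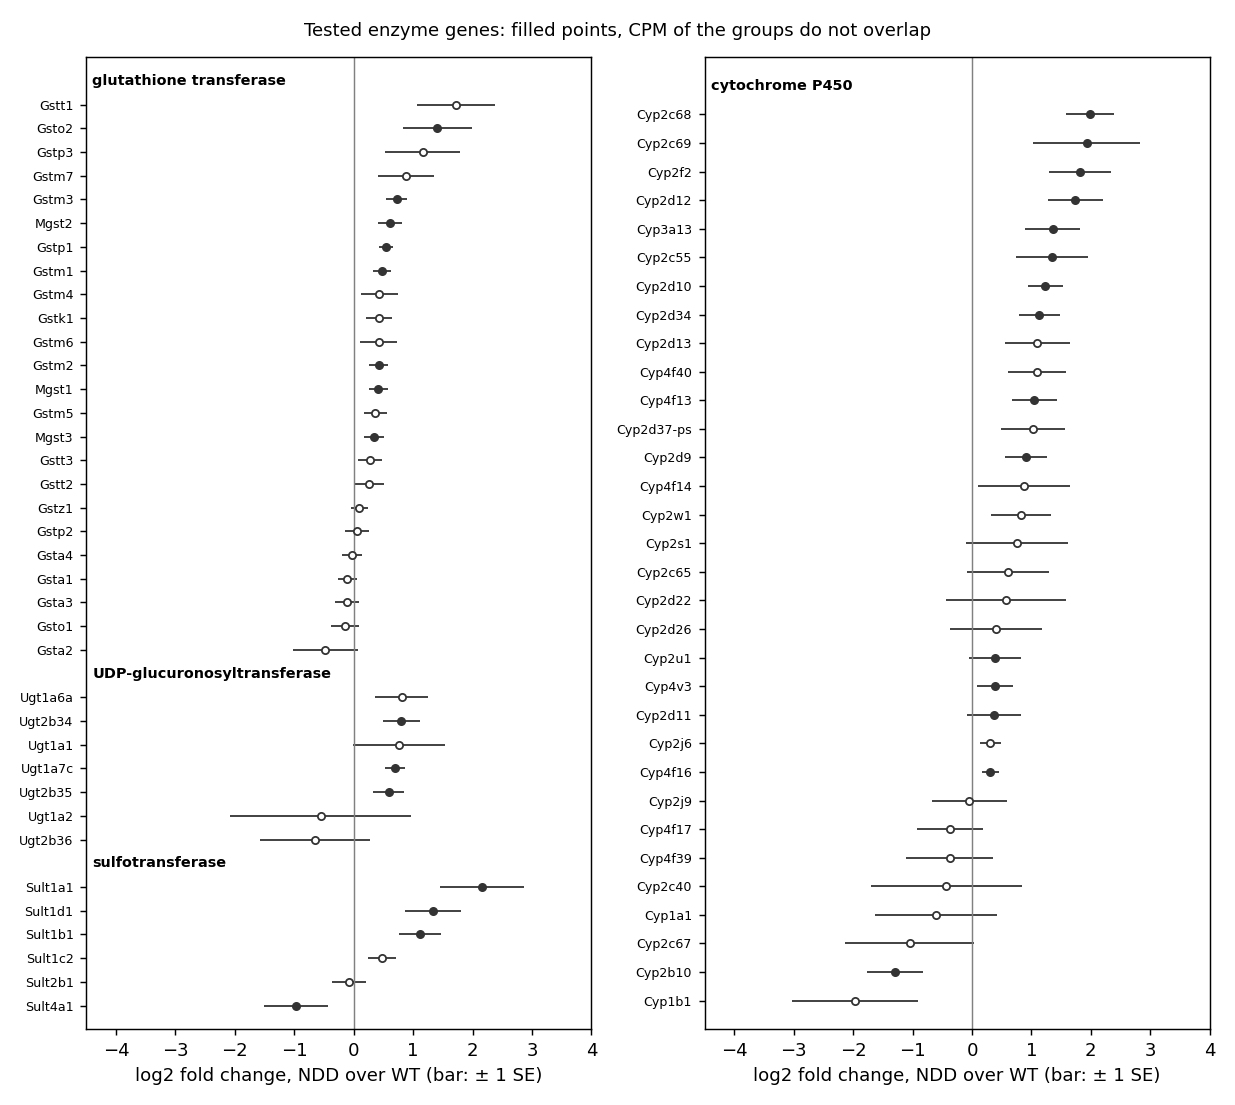
Log2 fold change of NDD over WT for all 69 tested members, by family (points, with bars of 1 standard error; 2 NDD and 3 WT libraries). Filled points mark genes whose CPM does not overlap between groups; most lie to the right of 0 and none passed the adjusted threshold.

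Among the cytochromes P450, which carry out the oxidation step, 24 of 32 tested genes had a positive fold change and 14 were higher without overlap, where 49.5% and 15.8% of all tested genes did so. Those shares of all genes also apply to the counts of the other groups below. The Cyp2c genes oxidize drugs and fatty acids such as arachidonic acid. Cyp2c55, the cytochrome P450 with the most RNA, stood at 470 and 481 TPM in NDD and at 303, 206 and 57.4 TPM in WT. The NDD libraries lay close together above all WT libraries, and WT replicate 3 was far below the other two. Its log2 fold change of 1.35 ± 0.60 (SE; 2 against 3 libraries) did not pass the test (edgeR, adjusted p = 0.460).

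Cyp2c68 had the lowest p of all members. It stood at 31.9 and 53.8 TPM in NDD and at 11.9, 15.8 and 6.16 TPM in WT, so both NDD libraries were above every WT library. This gave a log2 fold change of 1.99 ± 0.41, with an edgeR adjusted p of 0.233 and a DESeq2 adjusted p of 0.000336. Cyp2c69, nearby on the chromosome, was low but also had both NDD libraries above all WT libraries, at 2.06 and 2.10 TPM against 1.08, 0.54 and 0.05 TPM. Cyp2c67 and Cyp2c40 stayed at or below 1.19 TPM in every library, with overlapping groups.

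These Cyp2c genes are close copies, which matters for how far their counts can be assigned. They lie among 16 Cyp2c genes at chr19:39006940-44029256 (GRCm38.p6, RefSeq), of which 6 could be tested. Over 1473 aligned coding bases Cyp2c67 and Cyp2c69 were 97.1% and 96.5% identical to Cyp2c68. The same stretch of each coding sequence (bases 601 to 690 from the start codon, GENCODE M21) is shown to make this visible, with capitals marking the 2 bases in each copy that differ from Cyp2c68.
Cyp2c68: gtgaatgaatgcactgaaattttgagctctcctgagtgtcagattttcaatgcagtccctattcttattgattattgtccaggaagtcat
Cyp2c69: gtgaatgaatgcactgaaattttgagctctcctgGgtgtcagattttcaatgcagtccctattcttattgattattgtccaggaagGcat
Cyp2c67: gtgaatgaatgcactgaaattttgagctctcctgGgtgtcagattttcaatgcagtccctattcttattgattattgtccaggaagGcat
A short read from this stretch could fall on a run that all 3 genes share. With Cyp2c40, Cyp2c67, Cyp2c68 and Cyp2c69 summed before the fit, the group stood at 33.0 and 55.1 CPM in NDD and at 13.8, 16.7 and 5.92 CPM in WT, again without overlap. For the sum, the log2 fold change was 1.86 ± 0.44 (edgeR, adjusted p = 0.294).

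The Cyp2d genes, relatives of human CYP2D6, form a tandem array at chr15:82370527-82794452 (GRCm38.p6). Of 10 genes in the array 9 were tested, all 9 had positive fold changes and 5 were higher without overlap (all genes, 15.8%). The 9 include the pseudogenes Cyp2d13 and Cyp2d37-ps, both with overlapping groups. Cyp2d34 was the most abundant at 72.3 and 148 TPM in NDD against 58.4, 55.6 and 41.1 TPM in WT. Both NDD libraries were above WT, replicate 2 by more, and the log2 fold change was 1.13 ± 0.34 (edgeR, adjusted p = 0.402). It was 0.47 without NDD replicate 2.

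Cyp2d10 had the smallest standard error of the array. It stood at 15.2 and 15.7 TPM in NDD and 6.17, 8.82 and 5.07 TPM in WT. Its log2 fold change was 1.24 ± 0.29 (edgeR, adjusted p = 0.293; DESeq2, adjusted p = 0.0150) and stayed between 1.06 and 1.52 when any 1 library was left out. Cyp2d12 stood at 11.1 and 18.7 TPM against 5.65, 5.52 and 2.41 TPM, also without overlap. Here the log2 fold change was 1.74 ± 0.46 (edgeR, adjusted p = 0.351; DESeq2, adjusted p = 0.0203). Not every gene of the array followed the same order of libraries. Cyp2d26 was at 14.9 TPM in NDD replicate 1 and 71.9 TPM in NDD replicate 2, on either side of most WT values (45.0, 44.2 and 13.1 TPM), and its log2 fold change was -1.21 without NDD replicate 2. Cyp2d10 and Cyp2d11 share 34.6% of the 31-base words of Cyp2d10, so a part of their counts may also have been split between copies.

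Further cytochromes P450 were higher in both NDD libraries. Cyp3a13, the single testable member of the drug-oxidizing Cyp3a group, stood at 12.3 and 21.3 TPM in NDD and at 9.91, 6.77 and 3.48 TPM in WT. On the log2 scale the fold change was 1.36 ± 0.47 (edgeR, adjusted p = 0.437). Cyp2f2, best known from lung club cells, was low at 3.38 and 5.62 TPM against 0.83, 2.06 and 1 TPM. For this gene the log2 fold change was 1.81 ± 0.52 (edgeR, adjusted p = 0.382). Cyp4f13, of a family that hydroxylates fatty acids and eicosanoids, stood at 25.9 and 50.04 TPM against 23.4, 20.8 and 12.8 TPM. The gap between NDD replicate 1 and WT replicate 1 was small, and the log2 fold change was 1.05 ± 0.38 (edgeR, adjusted p = 0.437) or 0.45 without NDD replicate 2.

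Other members pointed elsewhere or were set by a single library. Cyp2b10, the classic target of the receptor Nr1i3, was the 1 member lower at an unadjusted p under 0.05. It stood at 1.5 and 2.09 TPM in NDD and at 2.50, 5.09 and 5.97 TPM in WT, giving a log2 fold change of -1.30 ± 0.47 (edgeR, adjusted p = 0.437). The groups did not overlap, but all 5 levels were low. Cyp1a1, the classic target of the aryl hydrocarbon receptor, was at 0.98 and 0.62 TPM in NDD. In WT it was at 3.01 TPM in replicate 1 and at 0.46 and 0.29 TPM in the others, so the groups overlapped. Its log2 fold change was -0.61 ± 1.03 (edgeR, adjusted p = 0.784) and 1.10 without WT replicate 1. Cyp1b1, another such target, was also scattered, at 0.09 and 0.46 TPM against 0.87, 0.26 and 2.55 TPM. Its groups overlapped, and its log2 fold change was -1.97 ± 1.06 (edgeR, adjusted p = 0.481). It stayed between -3.47 and -0.93 when any 1 library was left out. Cyp2s1, an epithelial cytochrome P450, ranged from 32.1 TPM in NDD replicate 1 to 265 TPM in NDD replicate 2, with WT at 96.8, 133 and 44.5 TPM between them. For Cyp2s1 the log2 fold change was 0.76 with all libraries and -1.53 without NDD replicate 2.

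Of the glutathione transferases, 19 of 24 tested genes had a positive fold change, 8 were higher without overlap and none was lower without overlap. Gstp1, the pi-class enzyme, stood at 3131 and 2858 TPM in NDD and at 2093, 2138 and 2092 TPM in WT. The WT libraries differed little from each other, and both NDD libraries were well above them. This amounted to a log2 fold change of 0.54 ± 0.11, with an edgeR adjusted p of 0.256 and a DESeq2 adjusted p of 0.000998. It stayed between 0.52 and 0.58 when any 1 library was left out, the tightest of the higher members described here.

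Gstp1 lies beside Gstp2 and Gstp3 at chr19:4035411-4059605 (GRCm38.p6). The opening 120 coding bases of each (GENCODE M21) are shown because the genes resemble each other to different degrees, with capitals marking bases that differ from Gstp1.
Gstp1: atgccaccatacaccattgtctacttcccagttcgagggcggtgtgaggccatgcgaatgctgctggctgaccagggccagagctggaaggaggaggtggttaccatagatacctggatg
Gstp2: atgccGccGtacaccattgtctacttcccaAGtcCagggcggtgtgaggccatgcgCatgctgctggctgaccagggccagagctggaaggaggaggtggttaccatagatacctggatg
Gstp3: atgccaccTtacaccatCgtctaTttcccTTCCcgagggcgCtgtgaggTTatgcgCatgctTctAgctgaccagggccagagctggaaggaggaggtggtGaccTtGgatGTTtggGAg
In this stretch Gstp2 differed from Gstp1 at 6 bases and Gstp3 at 21. Over all 630 coding bases 98.1% were identical in Gstp2 and 71.7% in Gstp3. Gstp2 itself stood at 422 and 435 TPM in NDD and at 329, 498 and 436 TPM in WT, with overlapping groups and a log2 fold change of 0.058 ± 0.20 (edgeR, adjusted p = 0.899). Since the authors' division of reads between these copies is not given in the sources used here, the pair was also summed. The sum stood at 1167 and 1170 CPM in NDD and at 802, 904 and 830 CPM in WT, without overlap. For the sum, the log2 fold change was 0.47 ± 0.12 (edgeR, adjusted p = 0.342). The divergent copy Gstp3 was set by a single library, at 40.3 TPM in NDD replicate 1 and 194 TPM in NDD replicate 2 against 41.6, 72.2 and 51.0 TPM in WT. The log2 fold change of Gstp3 was 1.16 with all libraries and -0.46 without NDD replicate 2.

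The mu class, 7 genes in a row at chr3:107895854-108045179 (GRCm38.p6), had positive fold changes for all 7, and 3 were higher without overlap (all genes, 15.8%). Gstm1, its most abundant gene, stood at 692 and 751 TPM in NDD and at 469, 562 and 554 TPM in WT. Both NDD libraries were above all WT libraries, and the log2 fold change was 0.48 ± 0.15 (edgeR, adjusted p = 0.406). Gstm3 stood at 109 and 133 TPM against 77.4, 81.3 and 66.7 TPM, also without overlap. Its log2 fold change was 0.72 ± 0.18 (edgeR, adjusted p = 0.307; DESeq2, adjusted p = 0.0360). Gstm3 falls outside the rule for named genes and is described because DESeq2 called it. The log2 fold change of Gstm4 was 0.43 with all libraries and -0.076 without NDD replicate 2.

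The microsomal glutathione transferases, membrane proteins that also act on lipid peroxides, were higher in NDD without overlap for all 3 genes. Mgst3 stood at 1243 and 1076 TPM in NDD and at 1039, 990 and 765 TPM in WT. The margin between the lower NDD library and the highest WT library was small, and the log2 fold change was 0.35 ± 0.17 (edgeR, adjusted p = 0.471). Mgst2 was at 149 and 199 TPM against 128, 118 and 106 TPM, and Mgst1 at 166 and 156 TPM against 147, 108 and 114 TPM. Their log2 fold changes were 0.61 ± 0.20 and 0.42 ± 0.16 (edgeR, adjusted p = 0.414 and 0.437).

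In the alpha class and for the main omega gene the groups overlapped. All 4 alpha-class genes had negative fold changes, each with overlapping groups. Gsta4, an enzyme for the lipid peroxidation product hydroxynonenal, stood at 475 and 537 TPM in NDD and 449, 529 and 605 TPM in WT. Its log2 fold change was -0.024 ± 0.17 (edgeR, adjusted p = 0.953), with a sign that depended on which library was left out. Gsta1 shares 87.8% of its 31-base words with the gene model Gm3776. Summed with it and Gsta2, its log2 fold change was -0.096 ± 0.17 (edgeR, adjusted p = 0.794). Gsto1, which reduces dehydroascorbate and arsenic compounds, was at 1103 and 1360 TPM in NDD and 1069, 1612 and 1501 TPM in WT. The ranges overlapped, and its log2 fold change was -0.15 ± 0.23 (edgeR, adjusted p = 0.768). Gsto2, the other omega gene, was higher in NDD without overlap but below 1 TPM throughout, at 0.65 and 0.75 TPM against 0.18, 0.31 and 0.26 TPM (1.41 ± 0.58; adjusted p = 0.450).

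The theta, zeta and kappa classes gave small or scattered differences. Gstt3 stood at 54.5 and 72.2 TPM in NDD against 51.9, 61.0 and 47.8 TPM in WT (log2 fold change 0.27 ± 0.20; edgeR, adjusted p = 0.561). Gstz1, an enzyme of tyrosine breakdown, was nearly level, at 39.9 and 43.5 TPM against 42.4, 38.7 and 38.9 TPM (0.096 ± 0.14; adjusted p = 0.747). The mitochondrial and peroxisomal Gstk1 was at 65.5 and 43.2 TPM against 48.7, 35.0 and 39.1 TPM (0.43 ± 0.22; adjusted p = 0.477). Groups overlapped for all 3 genes. Gstt1 had the largest fold change of the family, 1.72 ± 0.66 on the log2 scale, yet its groups overlapped. It stood at 8.72 TPM in NDD replicate 1 and 30.9 TPM in NDD replicate 2, against 3.94, 10.1 and 4.66 TPM in WT, and its log2 fold change was 0.46 without NDD replicate 2.

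Of the UDP-glucuronosyltransferases, which attach glucuronic acid to bilirubin, steroids and drugs, 5 of 7 tested genes had a positive fold change and 3 were higher without overlap. Ugt1a7c held most of the RNA of its group, at 248 and 199 TPM in NDD and 159, 140 and 118 TPM in WT. Both NDD libraries were above WT, and here replicate 1 was the higher. The log2 fold change was 0.70 ± 0.17 (edgeR, adjusted p = 0.296; DESeq2, adjusted p = 0.0210), and it stayed between 0.58 and 0.81 when any 1 library was left out. Ugt1a1, the bilirubin enzyme, was low and scattered at 4.94 and 16.5 TPM against 12.7, 4.49 and 2.62 TPM.

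The Ugt1a genes are a special case of shared sequence. They occupy chr1:88055411-88220002 (GRCm38.p6), where each gene has its own opening exon and all use the same remaining exons. Bases 817 to 896 of the coding sequences of Ugt1a7c and Ugt1a6a (GENCODE M21), which span the start of the shared part, are shown with that part in capitals.
Ugt1a7c: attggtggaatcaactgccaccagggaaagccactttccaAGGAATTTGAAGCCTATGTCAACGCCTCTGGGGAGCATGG
Ugt1a6a: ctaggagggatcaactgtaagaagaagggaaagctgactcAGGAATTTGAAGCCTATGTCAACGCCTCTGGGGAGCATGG
From the capitals on, the final 737 of the 1593 coding bases were the same in both genes. Pooled over the transcripts listed under each gene name, 95% of the 31-base words of Ugt1a6a were found in Ugt1a7c. That share was 58.5% for Ugt1a1, so the 95% covers more than the common exons. Counts of single Ugt1a genes are therefore uncertain. With the 6 counted Ugt1a genes summed, NDD stood at 560 and 481 CPM and WT at 389, 312 and 253 CPM, without overlap. Summed, the group had a log2 fold change of 0.71 ± 0.20 (edgeR, adjusted p = 0.380), close to that of Ugt1a7c alone.

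In the Ugt2b group, Ugt2b34 was the most abundant gene, at 143 and 262 TPM in NDD and 129, 132 and 96.5 TPM in WT. NDD replicate 1 was only slightly above the WT libraries. The log2 fold change was 0.80 ± 0.31 (edgeR, adjusted p = 0.437), and 0.24 without NDD replicate 2. Ugt2b35 was also higher without overlap but low, at 2.64 and 3.15 TPM against 1.88, 1.87 and 2.14 TPM.

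Of the sulfotransferases, the 4 tested Sult1 genes all had positive fold changes and 3 were higher without overlap. Sult1a1, the phenol sulfotransferase, had the largest log2 fold change of any member, 2.16 ± 0.70 (edgeR, adjusted p = 0.419). It stood at 34.4 and 145 TPM in NDD and at 28.7, 24.3 and 9.43 TPM in WT. NDD replicate 2 was far above the other 4 libraries, and without it the log2 fold change was 0.69. Sult1b1, which sulfates thyroid hormones and phenols, had the highest mean of the sulfotransferases over the 5 libraries, at 52.0 TPM against 48.4 TPM for Sult1a1, although Sult1a1 had the higher mean in NDD (89.7 against 76.1 TPM). It stood at 60.0 and 92.2 TPM against 43.5, 42.3 and 21.9 TPM, with a log2 fold change of 1.12 ± 0.36 (edgeR, adjusted p = 0.413).

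Sult1d1, which sulfates catecholamines, lies next to Sult1b1 on chromosome 5. It stood at 27.8 and 49.1 TPM in NDD and 21.1, 18.3 and 7.62 TPM in WT. For this gene too, both NDD libraries were above all WT libraries, and the log2 fold change was 1.33 ± 0.47 (edgeR, adjusted p = 0.437). The cholesterol sulfotransferase Sult2b1 was at 24.8 and 32.1 TPM against 21.5, 33.2 and 37.5 TPM, with overlapping groups and a log2 fold change of -0.077 ± 0.29 (edgeR, adjusted p = 0.905). Sult4a1, known from brain, was below 1 TPM in all libraries, at 0.56 and 0.23 TPM against 0.62, 0.82 and 0.97 TPM.

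**Figure D4:**
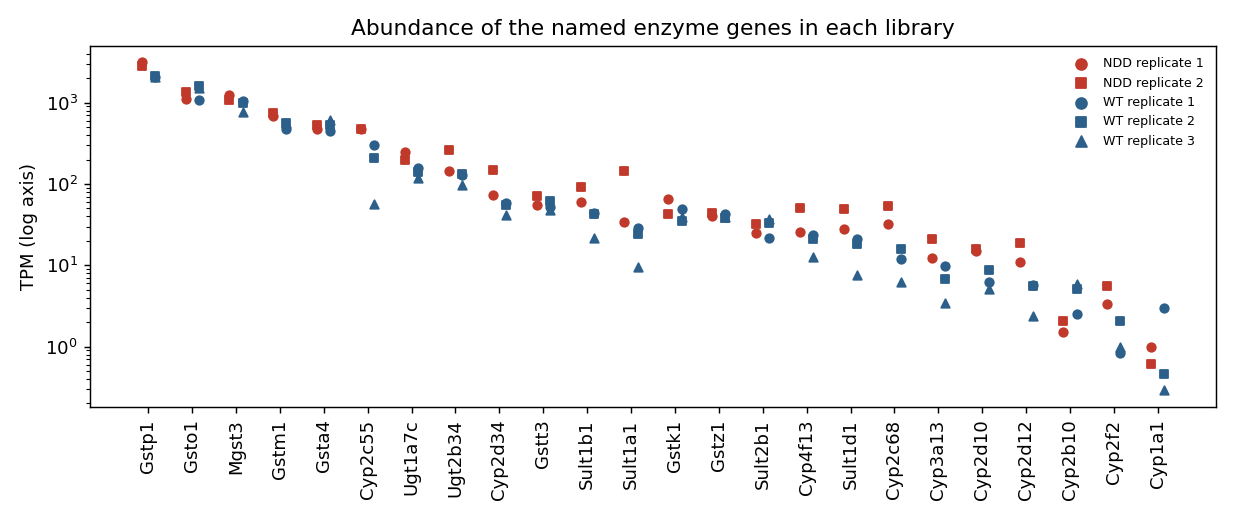
TPM of the named members in each library (log axis), ordered from most to least abundant; circles, squares and triangles are replicates 1, 2 and 3. Gstp1, Gstm1 and Cyp2c68 show NDD above WT without overlap, Gsta4 and Sult2b1 overlap, and Sult1a1 is high in NDD replicate 2.

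Promoters were searched, as a description only, for the core letters of the elements bound by the aryl hydrocarbon receptor (GCGTG) and by Nfe2l2 (TGACNNNGC), on both strands, 250 bases before to 50 bases after the first start that RefSeq lists. A promoter was listed for 122 of the 147 members. GCGTG was found in 18.9% of these, in 33.9% of the 56 members with at least 50 counts over all libraries, and in 32.5% of all 27025 promoters. TGACNNNGC was found in 6.6%, 10.7% and 12.5%. Windows around matches (GRCm38.p6, in capitals, read in the direction of the gene) are shown for Cyp1a1, Cyp2c68 and Gstm5, to set the best known target of the receptor beside a member with higher levels in NDD and a mu-class gene. They lie at chr9:57697529-57697593, chr19:39741197-39741261 and chr3:107895782-107895850.
Cyp1a1: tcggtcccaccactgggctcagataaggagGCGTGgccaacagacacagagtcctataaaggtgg
Cyp2c68: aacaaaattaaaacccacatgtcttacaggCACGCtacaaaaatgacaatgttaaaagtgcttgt
Gstm5: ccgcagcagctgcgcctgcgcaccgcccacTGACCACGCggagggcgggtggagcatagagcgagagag
In Cyp2c68 the match lies on the opposite strand and so reads CACGC. The share over all genes with at least 50 counts was not computed. A match to such short letters does not show a bound site.

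None of the receptors and partners known to control these families passed the test. Ahr stood at 9.48 and 5.97 TPM in NDD and 7.48, 6.64 and 8.39 TPM in WT (log2 fold change 0.056 ± 0.21; edgeR, adjusted p = 0.904). Nr1i2 was at 37.2 and 57.6 TPM against 41.9, 39.2 and 28.7 TPM (0.41 ± 0.27; adjusted p = 0.522), and Nr1i3 at 0.41 and 3.60 TPM against 1.27, 1.05 and 0.31 TPM (1.25 ± 1.07; adjusted p = 0.599). The groups overlapped for each of these receptors, and the sign of the Ahr and Nr1i3 differences depended on which NDD library was used. Without NDD replicate 2 the log2 fold change of Nr1i2 was 0.0060. Nfe2l2, its inhibitor Keap1, the hepatic and intestinal factor Hnf4a and the electron donor Por had log2 fold changes of 0.15 ± 0.19, -0.069 ± 0.12, 0.22 ± 0.19 and 0.18 ± 0.26, with overlapping groups for all 4. Without NDD replicate 2 the differences of Nfe2l2, Hnf4a and Por were negative. Over the list of 14 tested sensors and redox regulators, 0 passed the test, 2 were higher at an unadjusted p under 0.05 and the median log2 fold change was 0.18.

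The other lists of pathway genes differed in direction, with 0 called by edgeR in each. Of 20 tested drug-metabolism enzymes outside the 4 families, 17 had a positive fold change and the median was 0.61, with 4 higher and 1 lower at an unadjusted p under 0.05. For all these lists, the shares over all tested genes are 6.49% higher and 4.68% lower at that p. Examples are the alcohol dehydrogenase Adh1, at 1615 and 2996 TPM in NDD against 813, 1188 and 461 TPM in WT, and the thiopurine methyltransferase Tpmt, at 20.1 and 18.7 TPM against 8.81, 7.70 and 8.21 TPM. Groups did not overlap for either gene, whose log2 fold changes were 1.53 ± 0.45 and 1.10 ± 0.21 (edgeR, adjusted p = 0.398 and 0.207). For Adh1 the NDD libraries were far apart, with replicate 2 well above replicate 1. The lower gene was the aldehyde dehydrogenase Aldh3a1, at 0.62 TPM in both NDD libraries and at 2.53, 4.33 and 20.5 TPM in WT. Its WT libraries were far apart, and the log2 fold change was -3.85 ± 1.07 (adjusted p = 0.375).

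The cofactor and partner enzymes had a median log2 fold change of -0.056 over 14 genes, with 1 higher and 1 lower at an unadjusted p under 0.05. The higher was Papss1, which makes the sulfate donor used by sulfotransferases, at 98.2 and 132 TPM in NDD against 66.9, 88.4 and 65.0 TPM in WT. The lower was Pgd, an enzyme that makes NADPH, at 355 and 237 TPM against 475, 487 and 574 TPM. Groups did not overlap for either gene. Of 11 tested transporters, 6 had a positive and 5 a negative fold change, 3 were higher at an unadjusted p under 0.05 (all genes, 6.49%) and the median was 0.13. The drug efflux pump Abcb1a stood at 146 and 166 TPM against 112, 62.4 and 38.1 TPM, and Abcg2 at 17.8 and 21.4 TPM against 10.9, 11.9 and 9.25 TPM, both without overlap. Abcc1 and Slc35b2 were lower without overlap, at 46.23 and 40.9 TPM against 46.24, 50.9 and 61.3 TPM and at 69.6 and 65.3 TPM against 72.6, 78.3 and 75.6 TPM. Of 3 tested targets of the aryl hydrocarbon receptor outside the families, Aldh3a1 was lower at that p and the median was 0.091. The genes of these lists named here other than the receptors, Nfe2l2, Keap1, Hnf4a and Por were chosen after their values were seen. DESeq2 called 4 of the 60 tested pathway genes, Aldh3a1, Tpmt, Pgd and Adh1 (6.67%, against 2.64% of all genes).

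The members' levels also differed between libraries of the same group. Of the 69 tested members, 51 were higher in NDD replicate 2 than in NDD replicate 1 (73.9%, against 50% of all tested genes), and 41 were lowest among WT in replicate 3 (59.4%, against 36%). Relative to the WT mean, the cytochromes P450 had a median log2 CPM of 0.48 and 1.09 in the NDD libraries and of 0.29, 0.18 and -0.43 in the WT libraries. Sulfotransferases followed the same pattern at the extremes, with 0.44 and 1.15 against 0.16, 0.26 and -0.40. Glutathione transferases were at 0.13 and 0.52 against -0.16, 0.19 and -0.079. UDP-glucuronosyltransferases were at 0.24 and 0.75 against 0.77, -0.21 and -0.42, so NDD and WT overlapped for both of the latter.

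Markers of colonocyte differentiation, the maturation of the absorptive cells, had library medians in the same order as those of the cytochromes P450. The library order of each other family differed. The markers' median was 1.47 and 1.77 in NDD and 0.86, 0.19 and -0.95 in WT. Their summed level was 16141 and 15355 TPM against 10282, 9890 and 6585 TPM. In these sums NDD replicate 1 was the higher, unlike in the cytochrome P450 sums. All 19 had positive fold changes, with a median of 1.53, in a list chosen with earlier results of these data known. At an unadjusted p under 0.05, 12 were higher, against 6.49% of all tested genes, and 1 of them, Phgr1, rose in NDD (log2 fold change 1.32 ± 0.12; edgeR, adjusted p = 0.0373; higher in 2 of 2 NDD libraries). The Phgr1 call was lost without any 1 of WT replicates 1, 2 and 3, with edgeR adjusted p of 0.246, 0.248 and 0.229 and log2 fold changes of 1.33, 1.35 and 1.29. The proliferation markers separated the NDD libraries from each other. Their median was -0.079 in NDD replicate 1 and -1.22 in NDD replicate 2, and between -0.075 and 0.059 in WT. Summed, they stood at 1720 and 657 TPM in NDD and 1813, 1684 and 1924 TPM in WT. All 15 had negative fold changes, with a median of -0.56, and 0 were called by edgeR, with 0 at an unadjusted p under 0.05. Goblet cell markers were higher in 9 of 9, with a median log2 fold change of 0.40, 2 higher at an unadjusted p under 0.05 and 0 called. The part of differentiation, of proliferation and of either library in the members' differences was not tested.

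**Figure D5:**
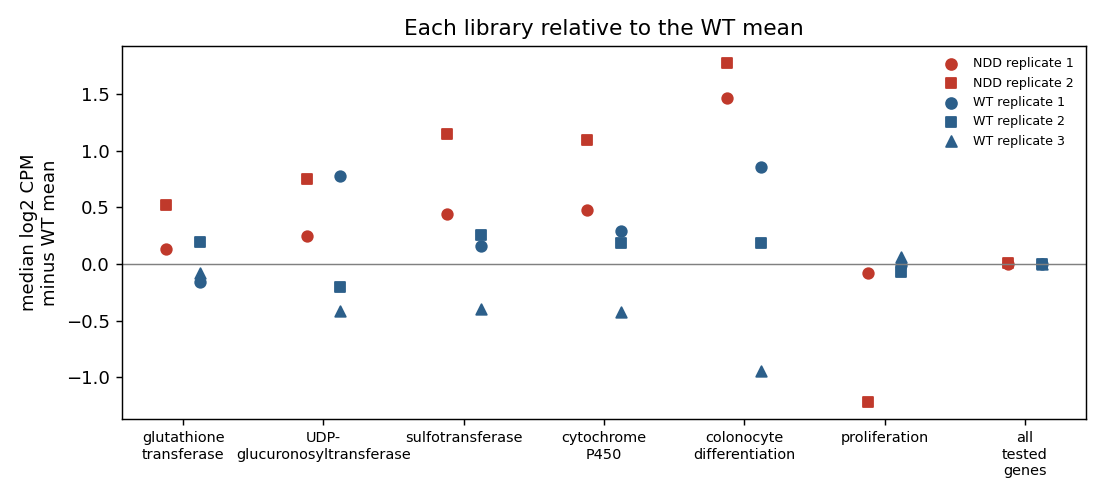
Median log2 CPM of each gene group in each library, minus the WT mean of each gene (points; red NDD, blue WT). WT replicate 3 is lowest for cytochromes P450, sulfotransferases and colonocyte markers, and NDD replicate 2 is highest for these and lowest for proliferation markers.

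Among other cell types, the markers of fibroblasts, endothelium, hepatocytes and small intestinal enterocytes each included 2 genes at 0 counts in all 5 libraries (Lum and Thy1, Kdr and Emcn, Fgb and F2, and Apoa4 and Fabp1). Pdgfrb made up most of the fibroblast sum in NDD, at 2.98 and 8.17 TPM against 2.12, 1.51 and 1.09 TPM in WT, without overlap (log2 fold change 1.85 ± 0.51; edgeR, adjusted p = 0.369). Vim, the other tested fibroblast marker, had a negative fold change, at 0.75 and 0.57 TPM in NDD against 1.9, 1.32 and 0.6 TPM in WT. Its groups overlapped (log2 fold change -0.92 ± 0.60; edgeR, adjusted p = 0.516). All 3 tested immune markers had negative fold changes, and 1 of them, Csf1r, was lower at an unadjusted p under 0.05. The hepatocyte list summed to 9.23 and 9.33 TPM in NDD and to between 7.03 and 9.26 TPM in WT. Alb was at or below 0.22 TPM in every library. Tat was at 7.77 and 6.28 TPM in NDD against 4.58, 3.06 and 3.17 TPM in WT, without overlap (log2 fold change 0.98 ± 0.27; edgeR, adjusted p = 0.359). Apoa2 had 0 counts in both NDD libraries and stood at 2.82, 2.3 and 2.04 TPM in WT. The small intestinal list summed to 55.8 and 66.6 TPM against 50.2, 45.2 and 38.9 TPM, most of it from the glucose transporter Slc5a1.

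Across the fits that left out 1 library and in which a member could be tested, 43 members kept a positive fold change (62.3%, against 29.7% of all tested genes) and 5 a negative one (7.25%, against 30.6%). The other 21 changed sign in at least 1 fit. Without NDD replicate 2 the log2 fold change was 0.81 for Sult1d1, 0.72 for Sult1b1, 0.85 for Cyp3a13, 0.33 for Mgst2 and 0.0063 for Gstt3. It was 0.16 for Gstk1 without NDD replicate 1 and 0.21 for Mgst3 without WT replicate 3. Both NDD libraries lay above the WT mean for 42 tested members (60.9%, against 30.4%) and below it for 7 (10.1%, against 33.6%).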

How the data were processed

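RNA from 5 colon spheroid samples was made into stranded mRNA libraries, per the labels' protocols. The authors deposited a table of estimated counts, given as whole numbers with no normalization, and a table of TPM, which the authors scaled to transcript length and to each library's total. Bowtie2, RSEM and mm10 are named per the submitters' processing notes, without versions or settings. The gene annotation is not given in the sources used here. Each library's group and number come from its title, and 0 value columns were left unmatched.

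Counts of all 5 libraries were fitted with edgeR 4.0.16 (quasi-likelihood test, robust prior, TMM factors, filterByExpr) in R 4.3.3, which left 13501 genes. P-values were adjusted over all of them by Benjamini and Hochberg and called under 0.05. Fold changes used a prior count of 0.125, and their standard error (SE) is the log2 fold change over the root of the F statistic. The code was tested on simulated data. Members and lists were chosen with earlier results of these data known.

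Named genes were, by rule, members past the threshold (none), the most abundant member of each subfamily with at least 1 TPM, up to 8 higher and 8 lower members with unadjusted p under 0.05 and no overlap of CPM, 7 regulators and partners, Notch1 and Notch2. Other members are described as examples chosen after their values were seen.

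Positions and promoters came from RefSeq (GRCm38.p6), with 147 of 147 members matched, and coding sequences from GENCODE M21 (GRCm38). Genes sharing at least 50% of the 31-base words of the shorter gene were treated as near-identical copies. Alternatives were RLE or upper-quartile factors, no filter or at least 10 counts in every library, and DESeq2 1.42.0. Limma 3.58.1 was run on log2(TPM + 1) or log2(TPM + 0.1) with a minimum of 1 TPM in 2 libraries, and on log2(TPM + 1) without that minimum. The replicate number as a block and leaving out each library were also used. Summing near-identical copies was added after the data had been seen.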

Additional observations from a re-analysis of the deposited data

How the results depend on the processing

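No member was called under any alternative of the edgeR or limma fits that kept all 5 libraries, but DESeq2 called 6. The number of genes changed over the whole table was 12, and it was 58 with no filter, 4 with at least 10 counts in every library, 357 with DESeq2 and 33 with the replicate block. Pathway genes changed numbered 0, and 4 with DESeq2. Members lower at an unadjusted p under 0.05 numbered 1 (1.45%, against 4.68% of all genes), and 2 with DESeq2 (2.9%, against 5.65%). Limma on log2(TPM + 1) with no filter takes in 100 members. Its median log2 fold change was 0.090 for sulfotransferases and 0.12 for cytochromes P450. In that fit 68 of the 100 were higher (68%, against 47.8% of all genes). RLE or upper-quartile factors left 52 of 69 members higher (75.4%, against 49.8% and 52.1% of all genes). Summing near-identical copies, chosen after seeing the data, left 48 of 61 (78.7%, against 49.5% of all genes).

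The replicate numbers were not shown to pair the libraries. The deviations of same-numbered libraries correlated at 0.013 and 0.30, with only 2 such pairs. With the replicate block, 15 members were higher at an unadjusted p under 0.05 (21.7%, against 3.64% of all genes in that fit). In the same fit 0 were lower (0%, against 3.34%) and 0 were called (0%, against 0.244%). The log2 fold change was 0.070 for Gsta4 and 0.093 for Sult2b1, which were negative without the block.

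Leaving out 1 library at a time gave 0 to 1207 genes changed, 0 to 6 members changed and 0 to 6 pathway genes changed. The highest of each came without NDD replicate 1, a fit in which the lone NDD library is assumed to vary like WT. The 6 members called there were Cyp2d34, Cyp4f40, Gstm3, Gstp3, Mgst2 and Ugt2b34, which is 8.22% of the members tested in that fit, against 8.62% of all genes. The number of genes changed was 0 without WT replicate 1, 5 without WT replicate 2 and 3 without WT replicate 3. Members higher at an unadjusted p under 0.05 ranged from 8 to 28 and members lower from 1 to 2. The 8 and the 28 came from the fits with a lone NDD library. Without NDD replicate 1 the shares of all genes higher and lower at that p were both larger than with all 5 libraries (6.49% and 4.68%). Member counts from that fit therefore cannot be compared directly with those of the other fits. Leaving out WT replicate 1, 2 or 3 gave 31.8%, 24.2% and 20.6% of members higher, against 5.46%, 4.76% and 3.08% of all genes. Lower were 1.52%, 1.52% and 1.47% of members, against 3.63%, 2.72% and 2.06%. The family medians ranged from 0.13 to 0.51 for glutathione transferases, 0.29 to 0.86 for UDP-glucuronosyltransferases, 0.11 to 0.92 for sulfotransferases and 0.42 to 1.06 for cytochromes P450. The named genes whose sign changed were Gsta4 (-0.16 to 0.11), Gsto1 (-0.35 to 0.038), Sult2b1 (-0.33 to 0.14), Gstz1 (-0.013 to 0.20), Cyp1a1 (-1.09 to 1.10), Ahr (-0.26 to 0.32), Nr1i3 (-1.21 to 2.11), Nfe2l2 (-0.12 to 0.39), Hnf4a (-0.042 to 0.45) and Por (-0.21 to 0.49). The causes of these shifts were not tested. The 2 NDD and 3 WT libraries set the precision, and every untested member had 12 counts or fewer in each library.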
